A study of Mus musculus with 14 samples.

Results

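The regions described here were 1000 bp stretches of the mouse autosomes whose DNA methylation differed widely among 3 wildtype clones picked during reprogramming. Each autosome was divided into tiles of 1000 bp, and a tile was used if at least 3 CpG cytosines, counted by chromosome, base and strand, were listed in all 10 methylation libraries. The level of a tile in a library was the percent of its reads that were methylated, over all its positions listed in that library. Reads of a tile were summed over its positions, so a read that covers several positions counts at each. A tile was taken as variable if its highest level among the 3 wildtype clones exceeded its lowest by at least 35 percentage points. This was the case for 2805 of 110555 tiles, or 2.54%. The tiles were thus selected on the levels of the wildtype clones, and those levels are given as a description and without a test. The fibroblast libraries, the 3-week libraries and the AID-null clones played no part in the choice.

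The cells derived from the tails of wildtype and AID-null mice, grown as fibroblasts. The genotypes are named here as the labels give them. Each genotype had 1 library of untreated fibroblasts, 1 library of a culture made to express Oct4, Sox2, Klf4 and cMyc for 3 weeks, and 3 libraries of clones that were picked at 2 weeks and measured after 3 weeks of reprogramming. RNA was sequenced in 1 fibroblast and 1 3-week library per genotype, and not in clones. The labels do not say whether the clones came from separate animals or separate cultures, how the factors were delivered, or the age or strain of the mice. Clone levels are given below in the order of clones 1, 2 and 3, and wildtype values before AID-null ones.

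Methylation of cytosine in CpG pairs is copied to both daughter strands at cell division, so a pattern present in a founder cell can be passed on to a clone. A culture holds many cells, and its level at a site is an average over them, whereas a clone descends from few cells. Reprogramming turns fibroblasts into pluripotent cells and resets methylation at many sites, while promoters dense in CpG pairs are mostly free of methylation in both states. Reduced representation bisulfite sequencing (RRBS) reads the cytosines next to cuts of a restriction enzyme, so each tile is represented by a few short fragments and not by its whole length.

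Promoters near 4 of the variable tiles are shown because they set a CpG-dense start region beside a tile that differed among clones. They belong to Hormad2, a meiotic chromosome axis protein, Igf2, an imprinted growth factor gene, Fhl2, a LIM domain protein, and Ube2ql1, a ubiquitin-conjugating enzyme related gene. Each sequence is the 250 bases before the start of the gene, 5′ to 3′ in the direction of the gene, from RefSeq on GRCm38.p6. Capitals mark the CpG pairs that were listed in at least 1 of the 10 methylation libraries. The build of the methylation files is mm9, so each promoter was placed there by the spacing of its covered CpG pairs.
Hormad2: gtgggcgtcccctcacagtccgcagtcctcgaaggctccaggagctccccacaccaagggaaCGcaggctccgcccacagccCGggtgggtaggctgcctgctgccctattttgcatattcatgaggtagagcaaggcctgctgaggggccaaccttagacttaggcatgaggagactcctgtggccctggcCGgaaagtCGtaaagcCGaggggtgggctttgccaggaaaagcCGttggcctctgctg
Igf2: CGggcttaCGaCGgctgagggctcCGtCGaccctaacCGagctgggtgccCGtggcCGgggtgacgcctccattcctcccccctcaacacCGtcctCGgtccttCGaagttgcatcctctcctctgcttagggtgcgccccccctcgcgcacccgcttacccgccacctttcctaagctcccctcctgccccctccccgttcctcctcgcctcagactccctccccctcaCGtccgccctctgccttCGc
Fhl2: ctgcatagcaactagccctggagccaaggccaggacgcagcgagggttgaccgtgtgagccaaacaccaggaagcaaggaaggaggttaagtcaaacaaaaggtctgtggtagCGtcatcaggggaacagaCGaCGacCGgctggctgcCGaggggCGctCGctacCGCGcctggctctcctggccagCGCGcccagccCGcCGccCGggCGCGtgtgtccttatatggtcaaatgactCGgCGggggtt
Ube2ql1: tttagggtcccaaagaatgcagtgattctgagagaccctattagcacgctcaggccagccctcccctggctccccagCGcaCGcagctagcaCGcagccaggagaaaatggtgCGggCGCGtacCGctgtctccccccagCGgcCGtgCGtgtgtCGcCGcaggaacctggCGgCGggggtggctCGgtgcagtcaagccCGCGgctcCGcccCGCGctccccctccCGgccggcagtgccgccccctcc

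The Hormad2 stretch holds 10 CpG pairs, of which 6 were covered, and the other 3 hold 21 to 24, of which 13 to 21 were covered. None of these letters lies in the covered part of the variable tile beside it. The covered positions of the Hormad2 tile began 164 bases after the gene's start and those of the Igf2 tile 1271 bases after it. The covered positions of the Fhl2 tile began 284 bases before the start and those of the Ube2ql1 tile 917 bases before it.

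Coverage summed over positions was 222945430 to 296572452 reads per RRBS library, over 1659832 to 2154007 listed positions. The median was 82 to 125 reads per position. The collagen gene Col1a1 was at 26383 and 30837 FPKM in wildtype and AID-null fibroblasts and at 159 and 1143 FPKM in the 3-week cultures. The pluripotency gene Nanog was at 1.29 and 0 FPKM in fibroblasts and at 347 and 265 FPKM at 3 weeks. The wildtype 3-week RNA therefore held less Col1a1 than the AID-null 3-week RNA, and how many cells of each culture were fibroblasts and how much RNA each cell held cannot be told apart. The AID-null libraries listed 506 to 648 positions of the Y chromosome and the wildtype libraries 27 to 48, so the genotype label and the presence of Y sequence cannot be told apart in any comparison of genotypes. Only autosomes were used.

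Among the variable tiles the wildtype clone range had a median of 40.8 points and reached 95.7 points, against a median of 8.36 points over all tiles. Most lay near the threshold, with 1938 between 35 and 45 points, 705 between 45 and 60, 142 between 60 and 80, and 20 at 80 or more. The highest of the 3 clones had a median level of 82.5% and the lowest 38.6%. The tiles just inside the threshold were chr6:118687001-118688000, with a range of 35.0023 points, and chr1:188476001-188477000, with 35.0082 points. Those just outside were chr17:47885001-47886000, with 34.9978 points, and chr3:132800001-132801000, with 34.9948 points.

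Within the variable tiles, the clone that stood apart from the other 2 was more often the less methylated one. Sorting the 3 levels and taking the larger gap placed 1 clone alone at the bottom in 1699 tiles and alone at the top in 1106. Clone 1 was alone at the bottom in 738 tiles, clone 2 in 670 and clone 3 in 291. Clone 2 was alone at the top in 488 tiles, clone 3 in 367 and clone 1 in 251. All 3 clones thus contributed tiles in both directions. This sorting was not done over all tiles, so it does not set the variable tiles apart. Clones 1, 2 and 3 were the highest in 25.2%, 38.8% and 36.1% of the variable tiles. Over all tiles these shares were near, at 24.8%, 36.7% and 38.5%. Without clone 1 the other clones differed by 35 points in 1114 tiles, without clone 2 in 980 and without clone 3 in 1512.

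The variable tiles were thinly covered, which the rule did not ask for. Their fewest positions in any library had a median of 3, against 5 over all tiles, and 83.1% had 4 or fewer positions in some library, against 42.1%. Only 9 variable tiles had at least 10 positions in every library, against 28554 of all tiles. Their fewest reads in any library had a median of 148, against 460, and 30.9% fell below 100 reads in some library, against 6.15%. The positions listed in all libraries spanned a median of 150 bp per variable tile. They included both strands in 62.2% of the variable tiles with such positions and in 89.6% of all such tiles. What part few positions and few reads had in the wildtype clone ranges was not tested. A repeat library of a clone, which would measure it, was not part of the set.

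The ranges were also computed over the positions shared by all libraries, which are mostly the reads that selected the tile. Of the 2607 variable tiles with at least 3 positions listed in all 10 libraries, 2394 (91.8%) kept a range of at least 35 points over those positions alone. The strands were also read separately, although the level that selected a tile pools them and so favours a like direction on both. In 1711 variable tiles the positions listed in all 10 libraries included both strands. Over those positions the highest clone exceeded the lowest on both strands in 1460 (85.3%). The difference reached 35 points on both strands in 420 tiles (24.5%), and the smaller of the 2 strand differences had a median of 25.3 points.

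Differences of 35 points rarely extended to the next tile. For each variable tile, the same pair of wildtype clones was compared in the neighbouring tiles. At a distance of 1 kb the 763 neighbours had a median difference of 0.69 points, and 9 of them (1.18%) reached 35 points in the same direction. Among the 614 neighbours at 1 kb that were at 30% or more in wildtype fibroblasts the median was 1.79 points and 8 (1.3%) reached 35 points. The difference had the same direction in 55.8% of the neighbours at 1 kb and in 58.3% of those at 30% or more. Over all tiles, a given pair of wildtype clones differed by 35 points, in either direction, in 0.886% to 1.37%. A small difference in the same direction at 1 kb is thus not excluded. At 2, 3, 5 and 10 kb the medians lay between -0.021 and 0.144 points over all neighbours, and between -0.885 and 1.27 points over those at 30% or more. An adjoining tile could be read for 699 of the variable tiles, and 24 of these (3.43%) adjoined another variable tile, near the 2.54% of all tiles that were variable. They formed 12 pairs, and no run was longer than 2 tiles. Per autosome the variable share of tiles ran from 2.09% on chromosome 7 to 2.97% on chromosome 3.

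**Figure D1:**
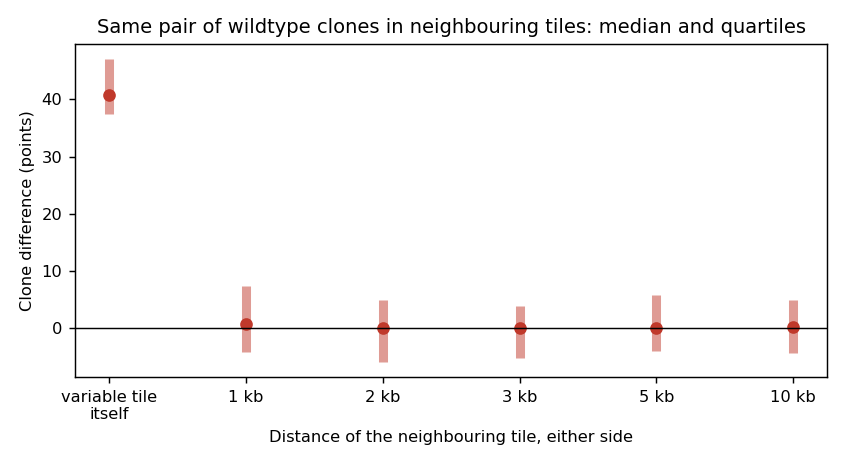
Difference in methylation level between the highest and the lowest wildtype clone of a variable tile (vertical axis, percentage points), in that tile and, for the same 2 clones, in tiles 1 to 10 kb away on either side (horizontal axis). Points are medians and bars run from the lower to the upper quartile, and the median fell from 40.8 points in the tile itself, which the choice of tiles fixed, to 0.69 points at 1 kb.

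The 3 adjoining pairs with the largest mean range show how neighbours could differ. In chr13:42917001-42918000 the wildtype clones had levels of 0%, 59.6% and 42.3%, and in chr13:42918001-42919000 they had 28.1%, 64.1% and 12.0%. Clone 2 was highest in both, but the lowest clone was clone 1 in the first and clone 3 in the second. In chr9:79850001-79851000 the wildtype clones had 30.6%, 66.2% and 41.5%, and in chr9:79851001-79852000 they had 30.7%, 85.6% and 84.9%. Clone 1 was lowest and clone 2 highest in both of these tiles, and clone 3 moved from the side of clone 1 to that of clone 2. In chr1:133015001-133016000 they had 38.7%, 74.1% and 63.0%, and in chr1:133016001-133017000 they had 36.6%, 91.6% and 46.2%. The tiles of these pairs had 2 to 6 shared positions, and their fewest reads in a library were 51 to 194. The highest clone was above the lowest at 2 of 3 shared positions in chr13:42918001-42919000 and at 4 of 6 in chr9:79850001-79851000. In the remaining tiles of the pairs it was so at all shared positions.

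Before reprogramming the variable tiles were more methylated than tiles in general. Their median level in fibroblasts was 82.8% for wildtype and 81.1% for AID-null, against 70.9% and 69.4% over all tiles. A tile under 35% in all wildtype clones could not be variable, and 23.6% of all tiles were under 10% in wildtype fibroblasts, against 3.46% of the variable tiles. Among tiles with 4 or fewer positions, 37.4% of the variable and 37.5% of all tiles lay between 70% and 90% in wildtype fibroblasts. Between 90% and 100% it was 31.5% and 26.4%. At like coverage the difference was thus smaller. At 3 weeks it was 57.2% and 68.3%, against 49.0% and 57.5%. The wildtype clones had medians of 53.1%, 61.0% and 65.9%, and the AID-null clones 70.1%, 63.4% and 79.7%. Fibroblasts of both genotypes were therefore the libraries with the highest medians, and wildtype clone 1 had the lowest.

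**Figure D2:**
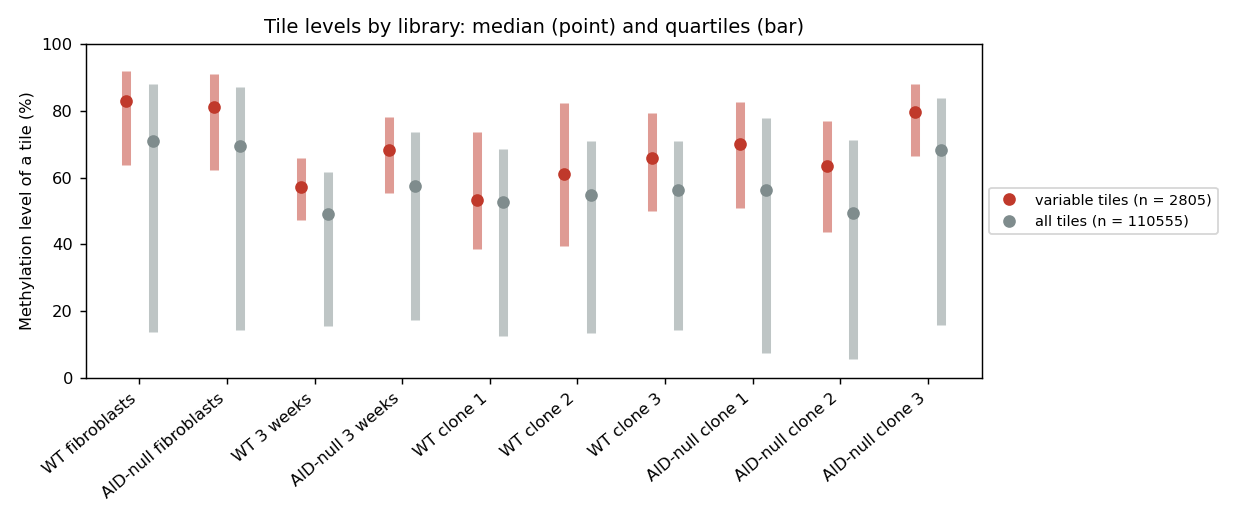
Methylation level per tile (vertical axis, percent) in each of the 10 RRBS libraries (horizontal axis), for the variable tiles and for all tiles. Points are medians and bars run from the lower to the upper quartile, and the variable tiles lie above all tiles in each library, from 82.8% in wildtype fibroblasts to 57.2% in the wildtype 3-week culture and 53.1% in wildtype clone 1.

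Each variable tile in the 3-week culture was compared with the fibroblasts of the same genotype by Fisher's exact test on reads, two-sided, with Benjamini-Hochberg adjustment over all 110555 tiles. A tile was called if the adjusted p was under 0.05 and the levels differed by at least 25 points. With 1 library on each side this compares the libraries and not the conditions. In wildtype, 1135 variable tiles (40.5%) were called lower at 3 weeks, against 31.6% of all tiles, and 116 (4.14%) higher, against 2.22%. In AID-null cells, 357 (12.7%) were called lower, against 10.8%, and 117 (4.17%) higher, against 2.27%. The AID-null share called lower lay near that of all tiles, and it was 10.8% against 10.6% among tiles with at least 100 reads in every library.

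The higher wildtype share called lower went with the higher starting level. Among tiles between 70% and 90% in wildtype fibroblasts, 41.7% of the variable tiles were called lower in wildtype, against 46.5% of all tiles in that band. Between 90% and 100% the shares were 72.3% and 69.8%, and between 30% and 70% they were 8.06% and 16.7%. Within bands of like starting level, the variable tiles were thus called lower about as often as other tiles or less often, and these shares were not tested.

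A small group of variable tiles started almost unmethylated. In wildtype fibroblasts 97 of the variable tiles were under 10%, with a median of 2.96%. Such a tile could enter the set only by reaching at least 35% in some wildtype clone, so a high level in the clones was fixed by the choice. The 3-week cultures and the AID-null clones, which played no part in the choice, were also higher than the fibroblasts. The band was set on the wildtype fibroblast level, which is also 1 side of the wildtype test. Picking tiles for a low fibroblast level and a high level in a reprogrammed clone favours a call of higher, so the shares below are a description. The same tiles had a median of 8.11% in AID-null fibroblasts, 35.03% and 31.8% in the 3-week cultures, and 46.3%, 42.4% and 63.1% in the AID-null clones. In wildtype, 62 of the 97 (63.9%) were called higher at 3 weeks by Fisher's exact test, against 3.63% of all tiles that started under 10%. In AID-null cells 39 (40.2%) were called higher, against 2.36%. Most of these variable tiles, 80 of 97, had 4 or fewer positions, whereas most of all tiles under 10% had more. Among tiles with 4 or fewer positions the shares called higher were 67.5% against 18.4% in wildtype and 46.25% against 12.3% in AID-null cells. Among tiles with at least 5 positions 8 of 17 variable tiles (47.1%) were called higher in wildtype, against 1.71% of all such tiles, but only 2 of 17 (11.8%) in AID-null cells, against 1.06%.

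**Figure D3:**
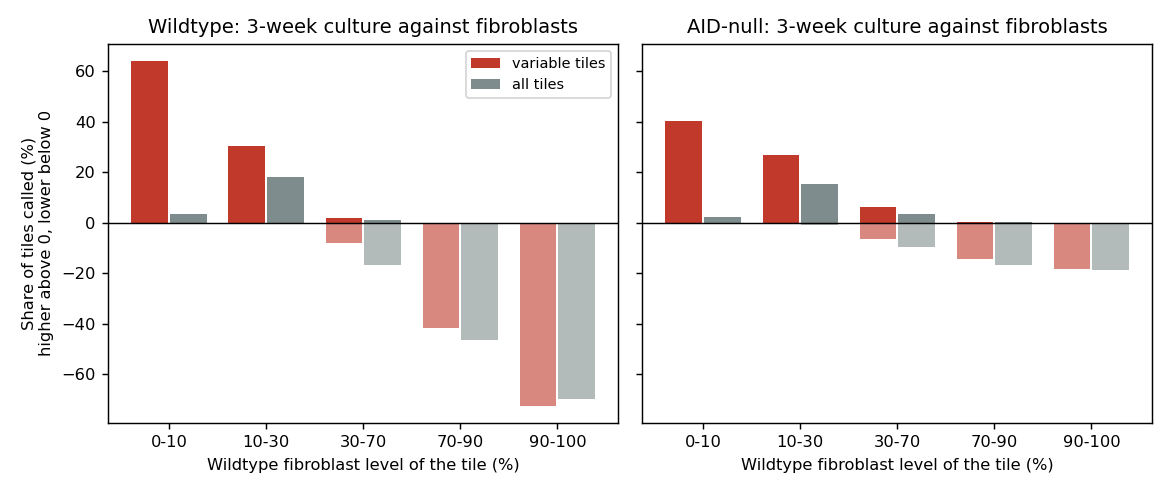
Share of tiles (vertical axis, percent) called higher (above 0, solid) or lower (below 0, pale) in the 3-week culture than in fibroblasts of the same genotype, by the tile's level in wildtype fibroblasts (horizontal axis, percent), for the variable tiles and all tiles. Among tiles starting under 10%, 63.9% of the variable tiles were called higher in wildtype, against 3.63% of all tiles (67.5% against 18.4% with 4 or fewer positions). The choice of tiles in that band favours a call of higher, so these shares are a description. The downward shares of the variable and all tiles were close at starting levels over 70%.

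The tile chr19:58487001-58488000 is one of this kind, with 5 positions and at least 201 reads in each library. It was chosen after its values were seen. It stood at 0% and 1.10% in the fibroblasts, then 25.4% and 19.5% in the 3-week cultures. The wildtype clones had 18.4%, 68.3% and 39.6%, and the AID-null clones 45.8%, 34.9% and 71.5%. Both fibroblast libraries lay below all 8 reprogrammed libraries. The 3-week level differed from the fibroblast level with an adjusted p of 4.17e-53 in wildtype and 1.94e-33 in AID-null cells by Fisher's exact test. The tile was picked for a low wildtype fibroblast level, which favours a small p, so these values are a description too. In chr8:129357001-129358000, also chosen after its values were seen, the fibroblasts had 2.96% and 0%, the 3-week cultures 46.9% and 15.7%, the wildtype clones 21.2%, 42.8% and 79.1%, and the AID-null clones 55.7%, 46.3% and 62.4%.

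The wildtype 3-week culture lay between the lowest and the highest wildtype clone in 2526 variable tiles (90.1%), against 40.9% of all tiles. The rule made that interval at least 35 points wide in the variable tiles, so more values fall within it and these shares do not set the variable tiles apart. Wildtype fibroblasts lay above all 3 wildtype clones in 1275 variable tiles (45.5%), against 59.2% of all tiles, within their interval in 1263 (45.03%) and below it in 267 (9.52%). The AID-null 3-week culture lay within it in 2278 (81.2%), against 40.6% of all tiles. AID-null clone 3 was the clone most often above it, in 1050 tiles (37.4%), as it was in all tiles (61.9%). Clone 1 was above it in 529 (18.9%), against 35.6% of all tiles, and clone 2 in 309 (11.0%), against 21.6%. All 3 AID-null clones fell within the wildtype interval in 1100 variable tiles (39.2%), against 8.94% of all tiles.

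Differences between the genotypes of at least 25 points were more frequent among the variable tiles than among all tiles, in both directions. At 3 weeks the AID-null culture was higher in 175 variable tiles (6.24%), against 2.29% of all tiles, and lower in 8 (0.285%), against 0.0642%. In fibroblasts, AID-null was higher in 46 (1.64%), against 0.369%, and lower in 85 (3.03%), against 0.581%. These counts rest on 1 library per genotype and time and use no test. They were not set beside tiles of like coverage or level. Of the variable tiles 83.1% had 4 or fewer positions in some library, against 42.1% of all tiles. In wildtype fibroblasts 3.46% were under 10%, against 23.6%. Whether the higher shares go beyond these differences was not tested.

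The AID-null clones varied more in these tiles than elsewhere. Their range, the highest minus the lowest level of the 3 AID-null clones, had a median of 21.1 points in the variable tiles and 12.5 points over all tiles. It reached 35 points in 541 variable tiles (19.3%), against 5.08% of all tiles and 4.71% of the tiles that were not variable in wildtype. These 541 tiles made up 19.3% of the wildtype variable set and 9.63% of the 5615 tiles with an AID-null range of at least 35 points. Most tiles variable in wildtype clones therefore were not so in AID-null clones by the same threshold.

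**Figure D4:**
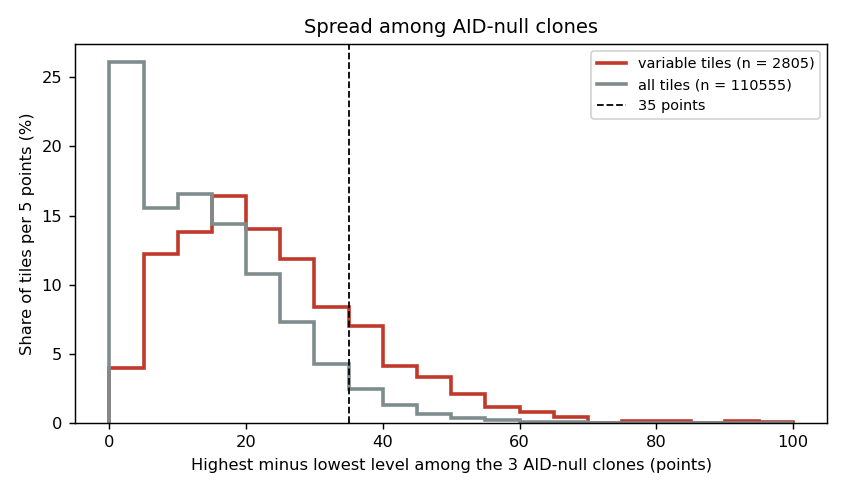
Distribution of the highest minus the lowest level among the 3 AID-null clones (horizontal axis, percentage points) for the variable tiles and all tiles, as the share of tiles per 5 points (vertical axis, percent). The dashed line marks 35 points, which 19.3% of the variable tiles and 5.08% of all tiles reached.

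Thin coverage went with the AID-null range as well, and the difference was also seen within bands of coverage. Among tiles whose fewest positions were 3 to 4, 19.8% of the variable tiles had an AID-null range of at least 35 points, against 7.95% of all tiles. With 5 to 9 positions the shares were 17.0% and 4.68%. With 10 or more positions they were 0 of 9 variable tiles and 0.886% of all tiles. Among tiles with at least 400 reads in each library the shares were 12.3% and 2.57%, and under 100 reads they were 29.0% and 14.4%. By level in wildtype fibroblasts, 24.7% of the variable tiles under 10% had such a range, against 0.788% of all tiles in that band (25% against 5.09% with 4 or fewer positions), and 17.9% of those between 70% and 90%, against 6.56%.

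**Figure D5:**
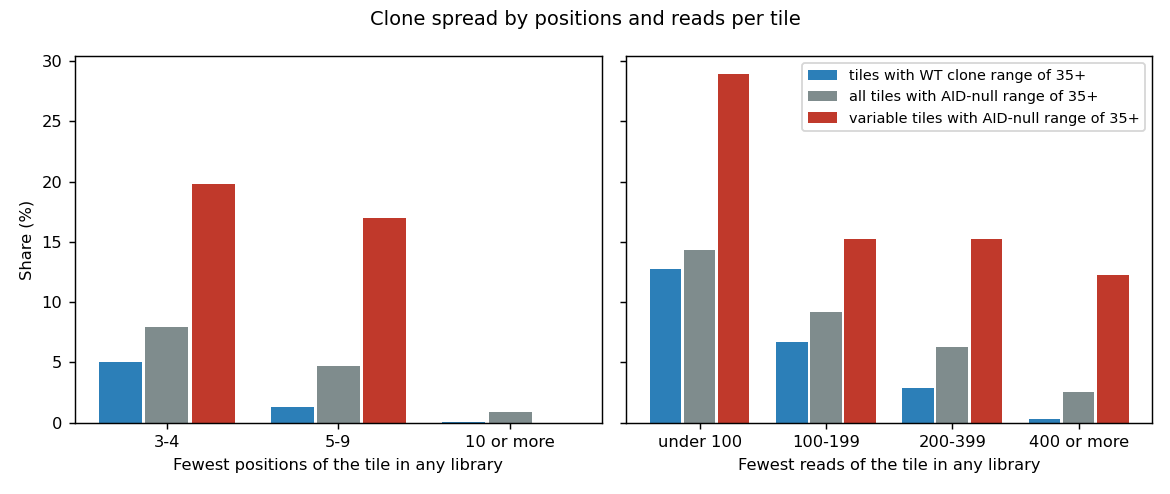
Share of tiles (vertical axis, percent) with a wildtype clone range of at least 35 points, and of all tiles and of variable tiles with an AID-null clone range of at least 35 points, by the fewest positions (left) or the fewest reads (right) of the tile in any library. The AID-null share of the variable tiles was above that of all tiles in each band except at 10 or more positions, where it was 0 of 9 tiles, and it fell from 29.0% under 100 reads to 12.3% at 400 or more.

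The AID-null ranges rested largely on clone 3. It was the highest of the 3 in 67.4% of the variable tiles and in 72.7% of all tiles, and clone 2 was the lowest in 60% of the variable tiles. Without AID-null clone 3 the other 2 differed by at least 35 points in 4.49% of the variable tiles, against 0.676% of all tiles. Without clone 1 the shares were 13.7% and 3.96%, and without clone 2 they were 8.27% and 1.86%. The variable tiles exceeded all tiles in each of these, and the share itself fell by more than 1.5 times without clone 2 or clone 3.

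Of the tiles eligible for naming by coverage, with at least 10 shared positions and 200 reads in each library, 4 kept a range of 35 points. The tile chr4:128072001-128073000 had the largest range of these. Its wildtype clones had levels of 59.1%, 40.3% and 92.5%. It had 10 shared positions and between 320 and 3416 reads in each library. The fibroblasts had 92.3% in wildtype and 83.1% in AID-null, the 3-week cultures 62.1% and 64.1%, and the AID-null clones 61.6%, 62.7% and 84.1%. Wildtype clone 3 was at the fibroblast level, and the 3-week culture lay between the clones.

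In chr9:79190001-79191000, with 13 shared positions over 348 bp, the wildtype clones had 73.9%, 41.8% and 84.6%. The fibroblasts had 94.9% and 92.2%, the 3-week cultures 65.0% and 71.1%, and the AID-null clones 62.8%, 50.3% and 76.6%. All reprogrammed libraries were below both fibroblast libraries. The lowest of them was wildtype clone 2, and the choice by wildtype clone range favours a wildtype clone there.

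The other eligible tiles were chr5:100821001-100822000 and chr19:6423001-6424000. In the former the wildtype clones had 63.8%, 40.1% and 77.1% and the AID-null clones 72.4%, 65.0% and 82.2%. In the latter the wildtype clones had 42.3%, 66.9% and 78.7% and the AID-null clones 70.9%, 51.2% and 61.2%. In both tiles the lowest of the clones was a wildtype one, clone 2 in the former and clone 1 in the latter. The rule asked for a wide range among wildtype clones only, which favours this.

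In other tiles the wildtype clones spread widely and the AID-null clones hardly at all. Those given here were chosen after their values were seen, among the 239 variable tiles with at least 5 shared positions and 200 reads in each library. In chr17:46363001-46364000 the wildtype clones had 78.0%, 35.3% and 74.2%, whereas the AID-null clones had 74.4%, 77.2% and 76.8%. In chr1:183193001-183194000 the wildtype clones had 55.3%, 92.0% and 95.6%, whereas the AID-null clones had 100%, 100% and 98.9%. Here a single wildtype clone was low and the AID-null clones were within 2.87 and 1.15 points of each other. In chr8:25656001-25657000 both sets spread, with 58.3%, 93.6% and 53.9% in wildtype and 57.9%, 25.5% and 83.0% in AID-null clones.

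The Hormad2 tile, chr11:4340001-4341000, had one of the widest spreads in both genotypes and was chosen after its values were seen. Its wildtype clones had levels of 65.4%, 3.41% and 39.7%, and its AID-null clones 2.82%, 12.5% and 67.7%. The fibroblasts had 92.8% in wildtype and 71.6% in AID-null, and the 3-week cultures 57.0% and 33.3%. Each set of clones thus ran from nearly unmethylated to about the level of the less methylated fibroblasts. The 5 positions lay within 32 bp, so that the same reads can cover several of them. Summed over the positions, at least 264 reads were counted in each library, so fewer separate reads covered the tile. The 3-week level was lower than that of the fibroblasts with an adjusted p of 3.03e-44 in wildtype and 9.35e-31 in AID-null cells by Fisher's exact test.

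The Hormad2 promoter varied less among the clones. Promoter levels here and below were taken over 300 bases, the 250 before the start and 50 from the start on. Of the 12 covered CpG pairs of the Hormad2 promoter, 6 are in the stretch printed above. Over its 12 positions listed in all libraries, the level was 47.3% and 58.5% in wildtype and AID-null fibroblasts and 24.3% and 25.3% at 3 weeks. It was 19.5%, 17.9% and 28.2% in the wildtype clones and 5.15%, 6.16% and 21.9% in the AID-null clones. Clone 2 of wildtype, which was almost free of methylation in the tile, was thus not set apart in the promoter. Hormad2 RNA was at 0 FPKM in both fibroblast libraries and at 5.3 and 11.05 FPKM in the 3-week cultures.

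At Igf2, Fhl2 and Ube2ql1 the promoter was nearly unmethylated in all 10 libraries while the tile varied. In the Igf2 tile, chr7:149843001-149844000, the fibroblasts had 32.9% and 29.8%, the 3-week cultures 38.2% and 45.3%, the wildtype clones 48.6%, 74.4% and 32.4%, and the AID-null clones 62.2%, 48.6% and 62.8%. Over the 3 positions listed in all libraries the fibroblasts had 17.8% and 26.2% and the 3-week cultures 40.5% and 46.9%. The wildtype clones then had 49.1%, 72.1% and 34.6%, and the AID-null clones 55.9%, 41.3% and 62.7%. The order of the fibroblasts and the size of the wildtype rise thus depended on the positions used. The Igf2 promoter was at most 2.58% in any library. Igf2 RNA was at 12.83 and 18.12 FPKM in wildtype and AID-null fibroblasts and at 33.9 and 39.5 FPKM at 3 weeks.

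In the Fhl2 tile, chr1:43221001-43222000, the fibroblasts had 46.7% and 20.7%, the 3-week cultures 33.0% and 20.9%, the wildtype clones 26.6%, 39.0% and 0%, and the AID-null clones 0%, 7.09% and 61.2%. The Fhl2 promoter was at most 1.73%. Fhl2 RNA was at 388 and 377 FPKM in fibroblasts and at 44.2 and 117 FPKM at 3 weeks, lower in both genotypes. In the Ube2ql1 tile, chr13:69879001-69880000, the fibroblasts had 0% and 2.06%, the 3-week cultures 12.0% and 15.1%, the wildtype clones 47.4%, 10.0% and 33.3%, and the AID-null clones 14.6%, 8.64% and 48.1%. The Ube2ql1 promoter was at most 0.494%. Ube2ql1 RNA was between 0.59 and 1.6 FPKM in all 4 RNA libraries. These 3 tiles held 3 positions listed in all libraries each, and other positions differed between libraries. Over the shared positions the Ube2ql1 tile had 0% and 4.60% in fibroblasts and 15.7% and 10.1% at 3 weeks. Its wildtype clones then had 56.6%, 10.0% and 37.5%, and its AID-null clones 26.6%, 19.7% and 59.8%. The Fhl2 tile had 16.2% in AID-null fibroblasts over the shared positions.

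Promoters near variable tiles were mostly unmethylated in all libraries, as placed promoters were in general. Of the 9541 promoters placed by CpG spacing, belonging to 8439 genes, 21 had a start within 1 kb of a variable tile and a level in all libraries. Of these, 19 were below 10% in all 10 libraries, and the wildtype clone range over them had a median of 0.372 points and a maximum of 10.3 points. Within 5 kb, 127 of 136 promoters were below 10% in all libraries and 0 had a wildtype clone range of at least 35 points. Among all placed promoters with a level, 8532 of 8890 (96.0%) were below 10% in all libraries and 1 had such a range. These counts thus do not set the promoters near variable tiles apart.

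The variable tiles lay further from the placed starts than other tiles. Their median distance was 82.6 kb, against 51.3 kb over all tiles and 73.9 kb for tiles with 4 or fewer positions. A start lay within 5 kb of 145 variable tiles (5.35%), against 17.8% of all tiles and 7.05% of tiles with 4 or fewer positions. Thinly covered tiles in general thus also lay far from placed starts. One variable tile, chr7:25654001-25655000, contained a placed start, that of Lypd4, but only 1 of its positions was listed in all libraries. Its fewest reads in any library, summed over positions, were 73.

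Several lists of genes were checked for a variable tile within 10 kb of a placed start. One of 15 imprinted genes with a placed start had one, Igf2, and 1 of 12 germline genes, Hormad1. None of 10 pluripotency genes, 5 fibroblast genes and 32 developmental transcription factors did. Over all placed genes it was 345 of 8439 (4.09%), so these counts are too small to set any list apart. The Hormad1 tile, chr3:95368001-95369000, lay 4.4 kb from the start of Hormad1, another meiotic axis protein. Its wildtype clones had 57.6%, 93.3% and 59.1% and its AID-null clones 71.7%, 82.9% and 94.0%.

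The Hormad1 promoter was at 88.0% and 86.1% in fibroblasts, 42.2% and 44.3% at 3 weeks, 31.2%, 38.5% and 39.2% in the wildtype clones and 19.096%, 19.2% and 40.3% in the AID-null clones. Its wildtype clones thus stayed within 7.99 points of each other. Hormad1 RNA was at 0 FPKM in both fibroblast libraries and at 32.95 and 38.01 FPKM at 3 weeks.

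RNA of the genes near variable tiles was compared between the 3-week and fibroblast libraries. A change was counted where log2(FPKM + 1) differed by at least 1 between the 3-week and the fibroblast library and either library reached 1 FPKM. Without replicates this is a difference between libraries. Of 145 genes with a placed start within 5 kb of a variable tile, 127 could be compared in wildtype and 28 (22.0%) were higher at 3 weeks, against 27% of all genes in the files and 22.1% of genes with a placed start. Lower were 19 (14.96%), against 17.7% of all genes and 14.9% of those with a placed start. In AID-null cells 27 of 126 (21.4%) were higher, against 21.3% of all genes and 16.0% of genes with a placed start, and 21 (16.7%) lower, against 17.6% and 15.3%. The wildtype shares were thus close to those of genes with a placed start, and the AID-null share higher was above it but at that of all genes. The promoter of 3 genes overlapped a variable tile, and 2 of them could be compared. Fhl2 was lower in both genotypes, and Ube2ql1 passed the limit in neither. RNA was not measured in the clones, so the clone levels of a tile have no RNA of the same clone beside them.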

How the data were processed

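Methylation was measured by RRBS in 10 libraries and RNA by sequencing in 4. The build mm9 and the tools TopHat, Cufflinks, Bismark and methylKit are named in the submitters' processing notes, without versions. Per the file headers, the authors deposited for each CpG cytosine and strand the coverage as a read count and the percent of reads with C and with T. All listed positions had a coverage of at least 10. Reads with neither base, present at 1.63% to 5.97% of positions, were dropped. The authors deposited RNA as FPKM per gene, with unknown depth.

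Reads with C and with T were computed as coverage times percent and summed per tile (Python 3.11.15, numpy 2.4.6, pandas 2.3.3, scipy 1.17.1). A read that covers several positions of a tile was counted at each, and reads are not independent molecules. Fisher's exact test therefore covers at most counting error, and its p-values are smaller than counting each read once would give. The test was tested on simulated data. Tile levels with few reads have wide counting errors, and a highest-minus-lowest difference grows with such error.

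RefSeq promoters (300 bases, GRCm38.p6) were placed on mm9 where at least 10 covered CpG pairs matched uniquely and none was absent from the promoter. No genome of the files' build was used, so exons, introns and repeats were not annotated, and promoters on chromosome 18 were not analysed here. Of the promoters on autosomes, 99.98% were placed on the chromosome named in the RefSeq table.

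Tiles with at least 10 shared positions, 200 reads in each library and a range of 35 points over the shared positions were eligible for naming: in each class of the clone standing apart the 2 with the largest range, and the 2 with the largest and the 2 with the smallest AID-null range. Named whatever their coverage were the 3 longest runs, which were all of 2 tiles and so were taken by the larger mean range, and the 2 tiles on either side of the threshold. Genes were named by a placed promoter overlapping a variable tile or by a list. Other names are stated as chosen after their values were seen. The variable tiles, gene lists and tests were chosen with earlier results of these data known. Alternatives covered the positions, reads, weighting, grid, thresholds, clones, pseudocount and promoter match.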

Additional observations from a re-analysis of the deposited data

How the results depend on the processing

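The number of variable tiles depended most on the thresholds. It was 475 with at least 5 positions per tile, 1938 with at least 100 reads in every library and 4207 with unweighted positions. With a wildtype clone range of 25 points it was 9131 and with 45 points 867. When a wildtype clone was left out it was 980 to 1512. The share of variable tiles with an AID-null range of at least 35 points was 16.6% with 5 positions, 14.96% with 100 reads, 15.03% with a wildtype range of 25 points and 22.6% with 45 points. It was 4.49% to 13.7% when an AID-null clone was left out and 19.5% to 20.1% when a wildtype clone was left out. It exceeded the share over all tiles in each of these settings. The wildtype share called lower at 3 weeks was 42.3% with 5 positions and 64.3% with a difference of 15 points, and 38.9% to 42.1% without 1 wildtype clone. The AID-null share was 10.8% with 100 reads, 15.3% with unweighted positions, 14.2% with tiles shifted by 500 bp and 31.9% with a difference of 15 points, and 11.7% to 12.9% without 1 wildtype clone. Changes of RNA were also counted over genes with a promoter overlapping a variable tile, summed over the genotypes. With 8 matched CpG pairs they were 4 of 6 comparisons in place of 2 of 4, as 4 genes in place of 3 had such a promoter. The cause of the shifts in the tile counts and shares was not tested. The medians of the fibroblast and 3-week levels moved by less than the counting error of a tile under the 12 settings run for them. Bands of coverage and starting level, genes within 5 kb and the tiles with 5 positions were chosen after seeing the data.

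No paired analysis was possible because the ranges are differences among clones of 1 genotype, the other comparisons have 1 library per group, and clone numbers do not mark a shared source. No clone had a repeat library, so the spread between libraries of 1 clone is unknown, and few positions and few reads limit each tile's level.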
